A study of Mus musculus with 12 samples.

Results

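The genes described here encode receptors for the constant part of antibodies and proteins of the complement system, in mouse splenic dendritic cells. The list held 10 genes, namely Fcgr1, Fcgr2b, Fcgr3, Fcer1g, C1qa, C1qb, C1qc, Cfp, C3 and Cr2. Every probe set of the deposited table whose only gene symbol in the platform annotation was a listed gene was taken. This gave 12 probe sets for 9 genes, of 12422 probe sets and 8251 named genes in all, and C3 was not analysed here. Fcgr1, Fcer1g and C1qb had 2 probe sets each.

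RNA came from spleen cells sorted for high CD11c and split into CD4+ cells, CD8+ cells and cells with neither antigen (double-negative, DN). Part of each subset was used directly (fresh) and part was kept for 2 h in medium at 37 °C (cultured), with 2 arrays for each of the 6 groups. The labels give no strain, age, genotype or treatment, and do not say whether the arrays came from separate animals, so the p-values rest on the spread between these arrays alone and that spread may be technical. The description of fresh CD8+ replicate 1 names CD4 positive cells, while its title and source name CD8+, as which it was used. The deposited intensities are linear and can lie below 0, and a value above 91.4, which is 2 times the typical noise of an array, was taken as measured above background.

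Antibodies bound to a particle are recognised by Fc gamma receptors. Fcgr1 and Fcgr3 encode activating receptors that signal through the common gamma chain, the product of Fcer1g, whose immunoreceptor tyrosine-based activation motif (ITAM) recruits the kinase Syk. Fcgr2b encodes the inhibitory receptor, which carries the matching inhibitory motif (ITIM) and recruits phosphatases. C1q, built from the products of C1qa, C1qb and C1qc, binds antibody complexes and starts the classical complement pathway. Properdin, encoded by Cfp, stabilises the convertase of the alternative pathway, and Cr2 encodes a complement receptor of B cells.

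The members fell into a few patterns. Fcgr2b was measured above background on the fresh CD8+ arrays alone and was below it after culture. C1qa, C1qc and a probe set of C1qb were on average brightest in fresh CD4+ cells and fell on culture as a mean over the subsets. Of these only C1qc was called lower in CD8+ cells taken alone. Cfp was high in fresh CD4+ and DN cells, lower in CD8+ cells, and fell on culture as a mean over the subsets. Fcer1g, by 1 of its 2 probe sets, was above background in fresh CD4+ and DN cells and below it in CD8+ cells. Fcgr3 and Cr2 were not above background on any array.

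**Figure D1:**
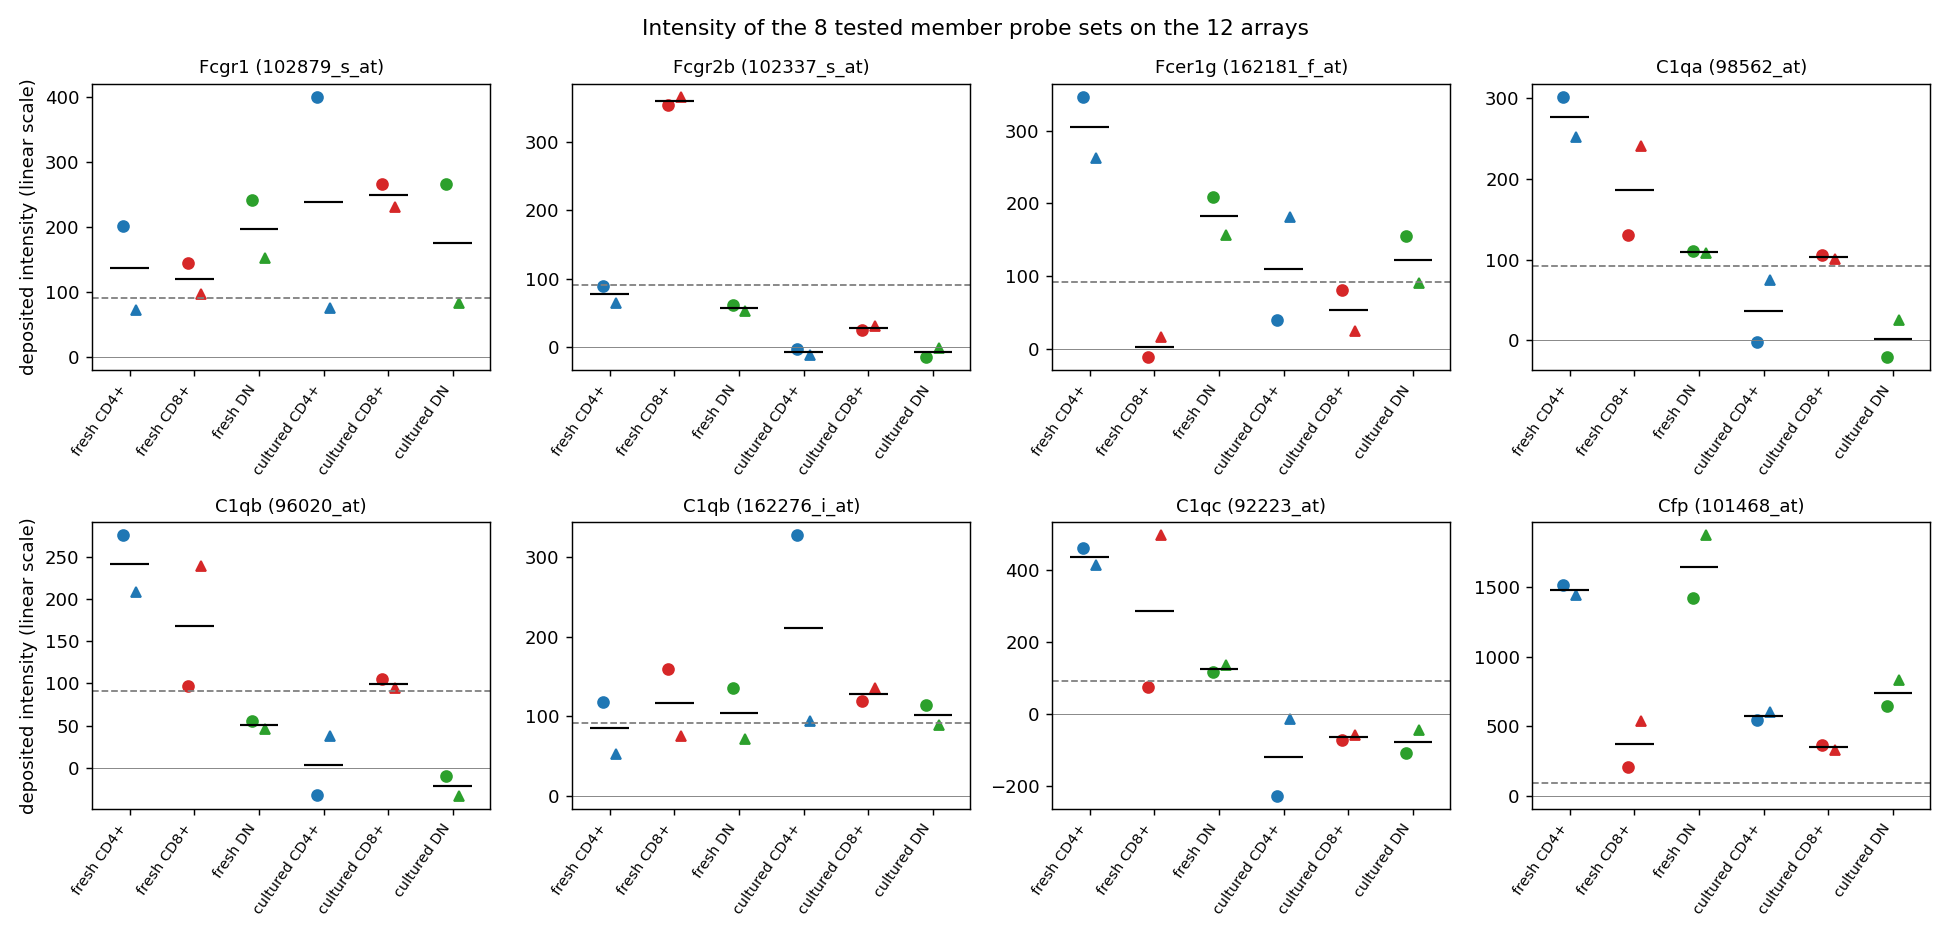
Intensity (vertical axis, deposited linear scale) of the 8 tested probe sets in each of the 6 groups. Circles are replicate 1, triangles replicate 2, short lines the mean of the 2, and the dashed line the background limit of 91.4. The fresh CD8+ arrays stand alone for Fcgr2b, at 354.7 and 366.3, and all 6 cultured arrays of C1qc lie below 0.

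The arrays differed in quality in ways that touch these results. Gapdh is read by control probe sets at its 3' and 5' ends, and the ratio of 3' to 5' can rise as RNA degrades. It was 2.55 on fresh CD8+ replicate 1, 1.97 on cultured CD4+ replicate 1, 1.34 on cultured DN replicate 1 and 0.890 to 1.04 on the other 9. The actin control probe sets did not single out these arrays, at 0.908, 1.16 and 0.919, and was highest, at 1.28, on cultured CD4+ replicate 2. The noise of an array (root mean square of its values below 0) ran from 26.2 to 108, and was higher in replicate 1 than in replicate 2 in 6 of 6 groups. It was also higher on each cultured array than on the fresh array of the same subset and replicate. Fresh arrays had 26.2 to 50.5 and cultured arrays 42.3 to 108, so noise and culture go together. Its part in the culture effects was not tested. The sort markers went with the labels. Cd8a was at 1210.4 to 1675.2 in fresh CD8+ cells and at most 36.1 in the other fresh cells, and Cd4 at 612.8 to 617.3 in fresh CD4+ cells and at most 92.0 in the other fresh cells.

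Tests were run over the 6159 probe sets above background on at least 2 arrays, with limma and Benjamini-Hochberg adjustment, and an adjusted p under 0.05 was called. Differences are on a generalised log2 scale, which stays defined below 0. It compresses changes of dim values above 0 and widens differences from values below 0. Of the member probe sets, 8 of 12 passed this filter, for 7 genes. The other 4, namely those of Fcgr3 and Cr2 and the second ones of Fcgr1 and Fcer1g, had no value above background. Those of Fcgr2b, C1qc and Fcer1g, and 1 of the 2 of C1qb, passed only through groups where they are high, so the counts below are descriptions. Where a gene had 2 probe sets, the brighter one stood for it in the counts of genes.

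As a mean over the 3 subsets, 4 of 7 member genes were called lower on culture and 0 higher. Of all probe sets 39.3% were called, 22.3% lower and 17% higher. The median difference of the 7 genes was -0.825, against -0.0165 over all probe sets. In CD4+ cells 4 genes were called lower, where 18.4% of all probe sets were called, 10.9% lower and 7.53% higher. In CD8+ cells 2 were called lower (8.13% called, 4.12% lower and 4.01% higher). In DN cells 3 were (9.9% called, 5.7% lower and 4.21% higher). The CD4+ and DN counts include Fcgr2b, whose fresh and cultured arrays there were all below background. No member gene was called higher in any subset. The medians of the 7 genes were -1.66, 0.0551 and -1.16 in CD4+, CD8+ and DN cells. Over all probe sets they were -0.0185, -0.0424 and 0.0216. Between fresh CD8+ and fresh CD4+ cells, 2 of 7 genes were lower and 0 higher in CD8+ cells, with 1.98% of all probe sets called, 0.958% lower and 1.02% higher. Between fresh CD8+ and fresh DN cells, 1 was higher and 1 lower, with 1.43% called, 0.617% higher and 0.812% lower. With fresh and cultured arrays averaged, 1 gene was higher and 2 were lower in CD8+ than in CD4+ cells (5.1% of all probe sets called, 2.81% higher and 2.29% lower), and 1 was higher and 2 lower in CD8+ than in DN cells (3.44%, of which 1.83% higher and 1.61% lower).

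No member gene was called between cultured CD8+ and CD4+ cells or cultured CD8+ and DN cells. In the first 2.29% of all probe sets were called, 1.41% higher and 0.877% lower, and in the second 1.3%, 0.649% in either direction, and 1 and 4 of the 8 member probe sets had an unadjusted p under 0.05. Between DN and CD4+ cells limma called 0% of all probe sets, whether fresh, cultured or averaged. There, 1, 0 and 2 of the 8 member probe sets had an unadjusted p under 0.05. In each comparison the CD4+, CD8+ or DN arrays are shared with other comparisons, so the counts are not independent of each other.

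Fcgr2b, the inhibitory receptor, showed the sharpest contrast between fresh CD8+ cells and all other groups. Its intensities were 354.7 and 366.3 in fresh CD8+ cells, 89.9 and 65.0 in fresh CD4+ cells, and 61.6 and 53.3 in fresh DN cells. After culture they were 25.3 and 31.4 in CD8+ cells, -1.9 and -11.2 in CD4+ cells, and -14.1 and -0.8 in DN cells. The fresh CD8+ arrays did not overlap with any other group, and the remaining 10 arrays were all below the background limit.

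In CD8+ cells the culture effect on Fcgr2b was -3.14 ± 0.49 on the generalised log2 scale (SE; limma, adjusted p = 0.00334), a fall of at least 3.74-fold, from 360.5 ± 8.2 to 28.4 ± 4.3 (SD, n = 2). This call held in all 21 other settings that kept the probe set, with adjusted p from 0.000307 to 0.0352. The probe set passed the filter through the fresh CD8+ arrays alone, so a difference of that group from others was a condition of its being tested. Such a bound sets the brighter group against the background limit, or against the dim value where that is higher.

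Against fresh DN cells, Fcgr2b was higher in fresh CD8+ cells by 2.47 ± 0.49 (limma, adjusted p = 0.0327), at least 3.74-fold. Against fresh CD4+ cells the difference was 2.12 ± 0.49 and was not called (adjusted p = 0.0530, and 0.0319 when replicate was a block). The call against DN cells was lost without either fresh CD8+ array (adjusted p = 0.221 and 0.137 without replicate 1 and 2), either fresh DN array (0.226 and 0.300), either fresh CD4+ array (0.0957 and 0.0907) or either cultured CD8+ array (0.0550 and 0.0573). It was also lost with the offset of the log scale at 0.5 times its value (0.164), and over 21 settings the adjusted p ran from 0.000914 to 0.300. The fit also called Fcgr2b lower on culture in CD4+ cells (adjusted p = 0.0158, and 0.138 and 0.0942 without fresh CD4+ replicate 1 and 2) and in DN cells (0.0457, in 7 of 21 other settings), but there both the fresh and the cultured arrays were below background, so no fold is given. Between cultured CD8+ and CD4+ or DN cells Fcgr2b was not called (limma, adjusted p = 0.337 and 0.474), and all cultured arrays were below background. Only the fresh CD8+ arrays bring values above background into the averages that follow. With fresh and cultured arrays averaged, Fcgr2b was higher in CD8+ cells by 1.59 ± 0.35 against CD4+ (limma, adjusted p = 0.0218) and by 1.77 ± 0.35 against DN cells (0.0169). The first ended without any 1 of the fresh CD4+, fresh CD8+ or cultured CD8+ arrays (0.0620 to 0.153) and the second without any 1 of those or the fresh DN arrays except fresh CD4+ replicate 2 (0.0506 to 0.0893). The probe set carries the suffix that the array's maker gives to sets matching several transcripts, and the extracellular parts of Fcgr2b and Fcgr3 are very similar, so its signal may hold transcripts of both.

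Fcgr3, the low-affinity activating receptor, ranged from -13.7 to 45.1 over the 12 arrays, with a median of 20.8. Its probe set was therefore at background in every group. Fcgr1, the high-affinity receptor, was measured by 2 probe sets that disagreed. One of them ranged from -171.0 to 11.7 and was never above background. The other was above it on 9 of 12 arrays, at 201.6 and 72.3 in fresh CD4+, 144.3 and 96.5 in fresh CD8+, and 241.2 and 152.4 in fresh DN cells. After culture it stood at 400.5 and 75.8 in CD4+, 266.4 and 230.4 in CD8+, and 266.4 and 83.4 in DN cells. Replicate 1 was brighter than replicate 2 in 6 of 6 groups, and so was the noise of those arrays. Within each state the subsets overlapped, except fresh CD8+ and fresh DN cells, and cultured CD8+ lay above fresh CD8+ cells. The mean culture effect was 0.40 ± 0.43 (limma, adjusted p = 0.471), and no comparison of this probe set was called. That probe set carries the same suffix as the Fcgr2b one, so its signal may hold other transcripts.

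Fcer1g, the common gamma chain, was low in CD8+ cells by 1 of its 2 probe sets, and the other was at background on every array. Its brighter probe set had 346.6 and 262.0 in fresh CD4+ cells, 208.3 and 156.8 in fresh DN cells and -10.9 and 16.5 in fresh CD8+ cells. In culture it had 39.6 and 181.0 in CD4+, 154.6 and 90.1 in DN and 81.4 and 25.1 in CD8+ cells. Both CD8-negative fresh groups lay above both fresh CD8+ arrays, and no CD8+ array was above background. The name of this probe set carries a suffix that the array's maker gives to sets shared by similar transcripts. Its signal may therefore hold others. Fresh CD8+ cells were lower than fresh CD4+ cells by -3.64 ± 0.64 (limma, adjusted p = 0.0130), at least 3.13-fold. The probe set was above background on 6 arrays, all of CD4+ or DN cells, and so was tested only through the groups where it is high. Omitting 1 of both fresh CD4+ arrays (adjusted p = 0.140 and 0.0908) or the first fresh CD8+ array (0.123) ended that call, in a range of 0.00251 to 0.140 over 22 settings.

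Against fresh DN cells, Fcer1g differed by -2.92 ± 0.64 and was not called (limma, adjusted p = 0.0520, and 0.0485 when replicate was a block). It did pass without the 3 arrays of high Gapdh ratio (0.0258) and without cultured CD4+ replicate 1 (0.0123) or 2 (0.0124), in a range of 0.0123 to 0.346. With both states averaged, Fcer1g was lower in CD8+ cells by -2.18 ± 0.45 against CD4+ (limma, adjusted p = 0.0174), and was lower than in DN cells too (0.0346). These calls held in 17 and 11 of 22 other settings, and not every loss is listed here. The first ended on omitting either fresh CD4+ array (0.0789 and 0.0588), replicate 1 of fresh CD8+ cells (0.0635) or cultured CD8+ replicate 2 (0.0858). The second ended with values raised to the background limit (0.268) and without any 1 of 8 arrays, namely all but the cultured CD4+ arrays, fresh CD8+ replicate 2 and cultured CD8+ replicate 1 (0.0597 to 0.146). The second Fcer1g probe set was never above background. Its fresh values were 74.6 and 61.6 in CD4+, 60.7 and 10.6 in DN and 20.2 and 3.1 in CD8+ cells. The group means took the same order, but the DN and CD8+ arrays overlapped. The culture effect of Fcer1g was 1.26 ± 0.64 in CD8+ cells (limma, adjusted p = 0.262) and -1.66 ± 0.64 in CD4+ cells (adjusted p = 0.0907), and neither was called. The test of the difference between these effects gave 2.92 ± 0.90 (unadjusted p = 0.00772, adjusted p = 0.503).

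The C1q genes lie side by side on chromosome 4, in the order C1qa, C1qc, C1qb with 0 annotated genes between neighbours. Promoter sequences of RefSeq (GRCm38.p6) were found for 9 of the 10 listed genes, and C1qa was the one without an entry. Those of C1qb and C1qc are shown because C1qc and 1 of the 2 probe sets of C1qb fell on culture, and those of Fcgr2b and Cfp because they differed between subsets in opposite directions. Each is the 250 bases before an annotated transcript start, on the minus strand, 5' to 3', at chr4:136886201-136886450 (C1qb), chr4:136892915-136893164 (C1qc), chr1:170976072-170976321 (Fcgr2b) and chrX:20931556-20931805 (Cfp). Capitals mark matches to the motifs described below them.
C1qb: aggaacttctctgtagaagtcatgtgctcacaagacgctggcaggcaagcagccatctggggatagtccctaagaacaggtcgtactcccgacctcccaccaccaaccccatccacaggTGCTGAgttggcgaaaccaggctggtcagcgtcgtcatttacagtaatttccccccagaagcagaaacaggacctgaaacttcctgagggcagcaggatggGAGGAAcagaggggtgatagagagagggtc
C1qc: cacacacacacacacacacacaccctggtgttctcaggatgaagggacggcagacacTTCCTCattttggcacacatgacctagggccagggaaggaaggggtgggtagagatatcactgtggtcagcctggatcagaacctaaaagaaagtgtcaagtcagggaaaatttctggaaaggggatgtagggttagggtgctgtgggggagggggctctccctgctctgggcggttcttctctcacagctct
Fcgr2b: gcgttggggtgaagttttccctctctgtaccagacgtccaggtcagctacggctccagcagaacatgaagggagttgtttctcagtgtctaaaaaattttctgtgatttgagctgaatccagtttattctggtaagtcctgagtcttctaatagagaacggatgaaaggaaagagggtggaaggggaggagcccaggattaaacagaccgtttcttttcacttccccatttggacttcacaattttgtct
Cfp: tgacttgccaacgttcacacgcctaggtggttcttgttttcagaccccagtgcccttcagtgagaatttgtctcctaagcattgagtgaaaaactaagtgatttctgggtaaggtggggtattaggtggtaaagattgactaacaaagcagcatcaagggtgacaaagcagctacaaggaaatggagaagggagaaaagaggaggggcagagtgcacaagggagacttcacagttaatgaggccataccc

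The motifs searched on both strands were GAGGAA, a core bound by the myeloid factor PU.1 and other ETS proteins, and TGCTGA, a core bound by MAF factors. No matches overlapped in the members. GAGGAA or its complement was present once in the C1qb and once in the C1qc window, and in 23.3% of all 32851 promoter windows of the same length. TGCTGA or its complement was present once in the C1qb window, in the Fcgr3 and C3 windows, and in 16.1% of all windows. The Fcgr1 and Fcgr3 windows also held the complement of GAGGAA, and the Fcgr2b and Cfp windows neither motif. A match of letters is a description of the window and shows no binding.

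C1qc, which encodes the C chain of C1q, had 458.7 and 411.6 in fresh CD4+ cells, 74.9 and 494.7 in fresh CD8+ cells, and 116.2 and 134.7 in fresh DN cells. In culture it was below 0 on 6 of 6 arrays, from -227.0 in CD4+ replicate 1 to -13.4 in CD4+ replicate 2. Every fresh array was thus above every cultured one. The mean culture effect was -5.07 ± 0.61 (limma, adjusted p = 0.000129), with means of 281.8 ± 192 fresh and -87.6 ± 75.1 cultured (SD, n = 6), and was at least 2.32-fold. The probe set was above background on 5 arrays, all fresh, and so was tested only through the fresh side, where it is high. Values below 0 widen the difference on this scale. The lowest, -227.0 and -108.5, were on cultured CD4+ replicate 1 and cultured DN replicate 1, the noisiest arrays (108 and 82.5). The call held in all 21 other settings that kept the probe set (adjusted p 9.74e-07 to 0.0127).

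Within subsets, C1qc fell by 6.13 ± 1.06 in CD4+ cells (limma, adjusted p = 0.00360, at least 4.50-fold). It fell by 4.80 ± 1.06 in CD8+ cells (adjusted p = 0.0200, at least 2.08-fold) and by 4.30 ± 1.06 in DN cells (adjusted p = 0.0283, at least 1.34-fold). With values raised to the background limit before taking logs, the calls in CD8+ and DN cells were lost (0.257 and 0.689). The CD8+ call was also lost without fresh CD8+ replicate 2 (0.130) or cultured CD8+ replicate 1 (0.124) or 2 (0.0786). The DN call was lost without either fresh CD4+ (0.0632 and 0.0626), fresh DN (0.121 and 0.201) or cultured DN array (0.165 and 0.0533). The CD4+ call was lost only when CD4+ arrays were fitted alone (0.0508).

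C1qa, the A chain, had 302.3 and 251.8 in fresh CD4+ cells, 130.4 and 241.1 in fresh CD8+ cells and 110.9 and 108.2 in fresh DN cells. After culture it had -2.7 and 74.4 in CD4+, 106.1 and 100.6 in CD8+ and -21.0 and 24.6 in DN cells. All 6 fresh arrays were brighter than all 6 cultured arrays. The mean culture effect was -1.92 ± 0.37 (limma, adjusted p = 0.00218) and was called in all 22 other settings (0.000239 to 0.00865).

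In CD4+ cells C1qa fell by 2.74 ± 0.64 (limma, adjusted p = 0.0147), at least 2.87-fold. It did not pass without fresh CD4+ replicate 1 (0.0934) or 2 (0.0817), without cultured CD4+ replicate 1 (0.0804) and when CD4+ arrays were fitted alone (0.0996). In DN cells it fell by 2.27 ± 0.64 (adjusted p = 0.0463), at least 1.18-fold, a call that held in 10 of 22 other settings (adjusted p 0.0114 to 0.655) and ended when any 1 of 8 arrays was left out. These were fresh DN replicate 1 (0.164) and 2 (0.227), cultured DN replicate 1 (0.322), fresh CD4+ replicate 1 (0.0762) and 2 (0.0756), cultured CD8+ replicate 1 (0.0711) and 2 (0.0711), and fresh CD8+ replicate 2, which left it just past the threshold. In CD8+ cells the effect was -0.74 ± 0.64 and was not called (adjusted p = 0.541). It was -1.17 without the 3 arrays of high Gapdh ratio, with replicate 2 as the only fresh CD8+ array.

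C1qb, the B chain, was measured by 2 probe sets of different behaviour. The first had 276.1 and 209.1 in fresh CD4+, 96.6 and 239.9 in fresh CD8+ and 55.5 and 45.8 in fresh DN cells. In culture it had -32.7 and 37.8 in CD4+, 104.8 and 95.1 in CD8+ and -10.6 and -33.4 in DN cells. In culture the CD8+ arrays were therefore the only ones above background. The culture effect of this probe set was -0.58 ± 0.68 in CD8+ and -2.03 ± 0.68 in DN cells. Neither was called (limma, adjusted p = 0.661 and 0.0820). This probe set fell as a mean over the subsets by 1.99 ± 0.39 (limma, adjusted p = 0.00255), in all 22 other settings (0.000146 to 0.0319). In CD4+ cells it fell by 3.34 ± 0.68 (adjusted p = 0.00777), at least 2.51-fold, which ended on leaving out fresh CD4+ replicate 1 (0.0741) or 2 (0.0536) and when CD4+ arrays were fitted alone (0.0832).

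The other C1qb probe set, which was the brighter one on average and stood for the gene in the counts, ranged from 52.2 to 327.1 with a median of 116. In every group but cultured CD8+ cells it was brighter on replicate 1, the noisier array, than on replicate 2. Its mean culture effect was 0.43 ± 0.35 (limma, adjusted p = 0.3465). Over the 12 arrays its Pearson correlation with the first C1qb probe set was -0.427, while that probe set correlated at 0.937 with C1qa and 0.770 with C1qc. C1qa and C1qc correlated at 0.848, and the brighter C1qb probe set and the Fcgr1 one above background at 0.774. These correlations are descriptions over 12 arrays that share the culture effect and carry no test.

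Between subsets the C1q genes were not called when fresh. The differences of C1qa were -0.62 ± 0.64 for fresh CD8+ against CD4+ cells (limma, adjusted p = 0.910) and -1.28 ± 0.64 for fresh DN against CD4+ cells (unadjusted p = 0.0687, adjusted p = 1). For fresh DN against CD4+ cells the first C1qb probe set differed by -2.03 ± 0.68 with no overlap (unadjusted p = 0.0121, adjusted p = 1) and C1qc by -1.75 ± 1.06 (adjusted p = 1). Both passed only when those groups were fitted alone (limma, adjusted p = 0.0266 and 0.0175). The fresh CD8+ arrays differed from each other, since replicate 1, with the Gapdh ratio of 2.55, was lower than replicate 2 for C1qa, C1qc and the first C1qb probe set. With both states averaged, that C1qb probe set was higher in CD8+ than in DN cells by 2.13 ± 0.48 (adjusted p = 0.0348), at 134 ± 70.7 against 14.3 ± 43.2 (SD, n = 4). No DN array of this probe set was above background, so against DN cells it was tested only through groups where it is high. The call held in 9 of 22 other settings. Raising values to the background limit ended it (limma, adjusted p = 0.534). It was lost without any 1 array of the fresh CD4+ (0.0752 and 0.0743), fresh DN (0.111 and 0.141), cultured CD8+ (0.131 and 0.112) and cultured DN groups (0.0645 and 0.103), and without fresh CD8+ replicate 2 (0.125).

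C1q genes are also highly expressed by macrophages, so macrophage markers are given beside them. Of 14 measured macrophage and monocyte markers, 5 were never above background, namely Marco, Mertk, Siglec1, Cd5l and Mrc1. The summed intensity of the 14 was 4655 to 4937 in fresh CD4+, 3759 to 4295 in fresh CD8+ and 2627 to 3612 in fresh DN cells. In culture it was 3637 to 6264, 7371 to 12155 and 3528 to 4254 in the same order. The sum was higher after culture in CD8+ cells and overlapped between the states in CD4+ and DN cells. Hmox1 (729 to 1283 fresh, 3053 to 7279 cultured) and Cd14 (138 to 261 fresh, 2226 to 2238 cultured) made up most of it in cultured CD8+ cells, where the median culture effect of the 9 tested markers was -0.804. Single markers moved in both directions. Adgre1, the macrophage antigen F4/80, was at 386 to 664 in fresh CD4+, 13.3 to 187 in cultured CD4+ and at most 50.5 in fresh CD8+ cells. Csf1r was at 643 to 823 in fresh and 183 to 324 in cultured CD4+ cells. Over all subsets Lyz2 was at 467 to 955 in fresh and 101 to 426 in cultured cells. Spic, a factor of red pulp macrophages, was at most 28.2 in fresh CD4+ and DN cells, 37.4 to 120.8 in fresh CD8+ cells and 252 to 1247 in cultured cells. As a mean on culture 3 of 9 tested markers were called higher and 4 lower, where 17% and 22.3% of all probe sets were. The part of such cells in the C1q values was not tested, and in sorted bulk samples fewer cells of a type and less RNA per cell cannot be told apart.

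Cfp, which encodes properdin, was the brightest member and was above background on 12 of 12 arrays. It had 1520.2 and 1446.8 in fresh CD4+, 1423.6 and 1874.5 in fresh DN and 208.8 and 537.2 in fresh CD8+ cells. After culture it had 542.7 and 604.6 in CD4+, 642.6 and 830.5 in DN and 367.6 and 331.0 in CD8+ cells. In each state both CD8+ arrays lay below all CD4+ and DN arrays. The order of the group means ran from fresh DN and fresh CD4+ over cultured DN and cultured CD4+ to fresh and cultured CD8+ cells, and of neighbours in that order fresh DN overlapped with fresh CD4+ and fresh with cultured CD8+ arrays.

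With both states averaged, Cfp was lower in CD8+ than in DN cells by -1.67 ± 0.27 (limma, adjusted p = 0.00588), at 361 ± 136 against 1193 ± 563 (SD, n = 4), and was called in all 22 other settings (0.000802 to 0.0383). Against CD4+ cells it was lower by -1.42 ± 0.27 (adjusted p = 0.0118), which ended on leaving out fresh CD4+ replicate 1 (0.0526) or 2 (0.0526) or cultured CD8+ replicate 2 (0.0568). Among fresh cells the differences were -2.14 ± 0.38 against CD4+ (adjusted p = 0.0154) and -2.28 ± 0.38 against DN cells (adjusted p = 0.0147). The first needed fresh CD4+ replicate 1 (0.140 on leaving it out), fresh CD4+ replicate 2 (0.130) and fresh CD8+ replicate 1 (0.0684), and was lost when those groups were fitted alone (0.118). The second needed fresh CD8+ replicate 1 (0.0518) and both fresh DN arrays (0.0923 and 0.206). Fresh CD8+ replicate 1, of high Gapdh ratio, was the lower of its pair, and without all 3 such arrays the differences were -1.46 (adjusted p = 0.0176) and -1.60 (0.0130). In culture the differences of -0.71 ± 0.38 against CD4+ and -1.06 ± 0.38 against DN cells were not called (0.411 and 0.317).

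Cfp fell on culture by 0.83 ± 0.22 as a mean over the subsets (limma, adjusted p = 0.0139), from 1169 ± 646 to 553 ± 185 (SD, n = 6), in all 22 other settings (0.000790 to 0.0470). The fall was 1.37 ± 0.38 in CD4+ cells (adjusted p = 0.0314), held in 16 of 22 other settings. It ended on omitting either fresh CD4+ array (0.139 and 0.144) or replicate 1 of cultured CD4+ cells (0.113), without a filter (0.0579), with CD4+ arrays fitted alone (0.0508) and without trend and robust estimation (0.0526). In DN cells the effect was -1.16 ± 0.38 and was not called (adjusted p = 0.0809, and 0.0440 when replicate was a block). In CD8+ cells it was 0.06 ± 0.38 (adjusted p = 0.952). Without the 3 arrays of high Gapdh ratio the CD8+ effect was -0.62, with replicate 2 as the only fresh CD8+ array.

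**Figure D2:**
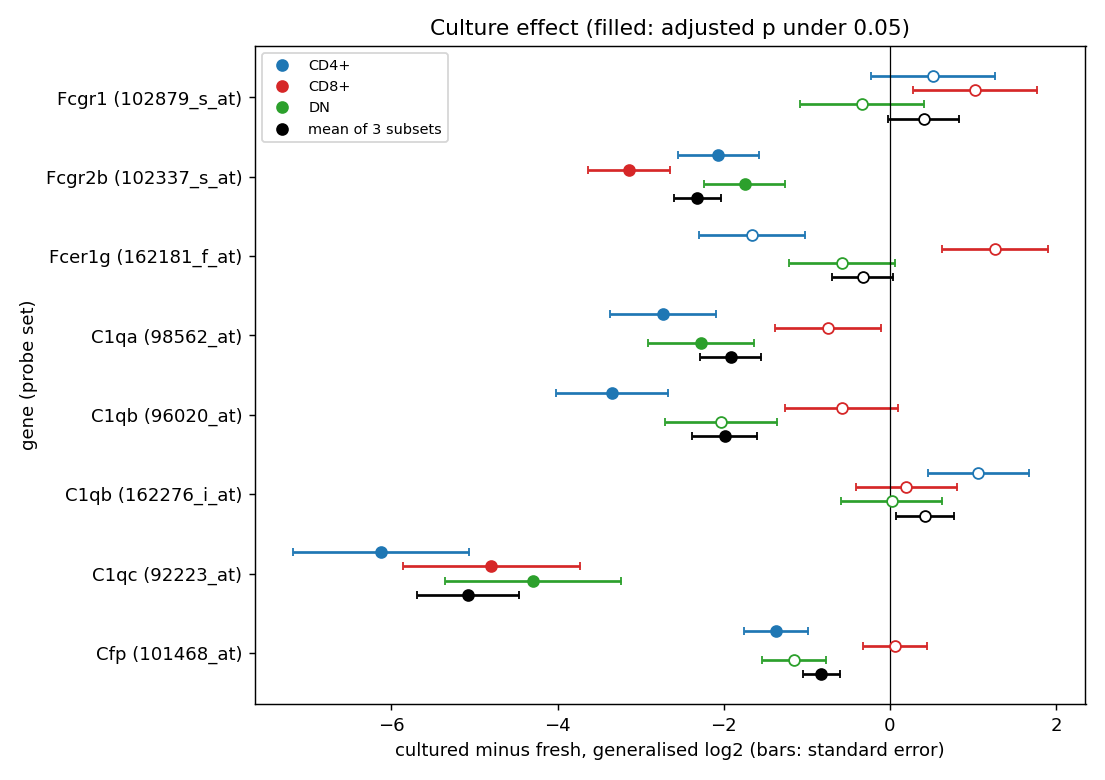
Culture effect of the 8 tested probe sets (horizontal axis, cultured minus fresh on the generalised log2 scale, bars the standard error) in each subset and as their mean. Filled points have an adjusted p under 0.05. C1qc lies farthest to the left, at -5.07 as a mean, and Fcgr2b, C1qa, 1 probe set of C1qb and Cfp are also filled for the mean.

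Whether the subsets responded differently to culture was tested as a difference of the effects. Limma called 0 member probe sets, and 0% of all probe sets, in each of the 3 pairs of subsets. At an unadjusted p under 0.05 there were 4 of 8 member probe sets for CD8+ against CD4+ cells, 1 for CD8+ against DN and 0 for DN against CD4+, and 525, 250 and 127 of all 6159. The 4 were Fcer1g, the first C1qb probe set (2.76 ± 0.96, unadjusted p = 0.0149), Cfp (1.43 ± 0.54, unadjusted p = 0.0238) and C1qa (1.99 ± 0.90, unadjusted p = 0.0487), with adjusted p from 0.503 to 0.586. All had a more negative effect in CD4+ cells. The 3 arrays of high Gapdh ratio include fresh CD8+ replicate 1 and cultured CD4+ replicate 1, which enter this comparison. Without those 3 the differences were smaller, at 1.56, 1.11, 0.67 and 0.61 in the same order.

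**Figure D3:**
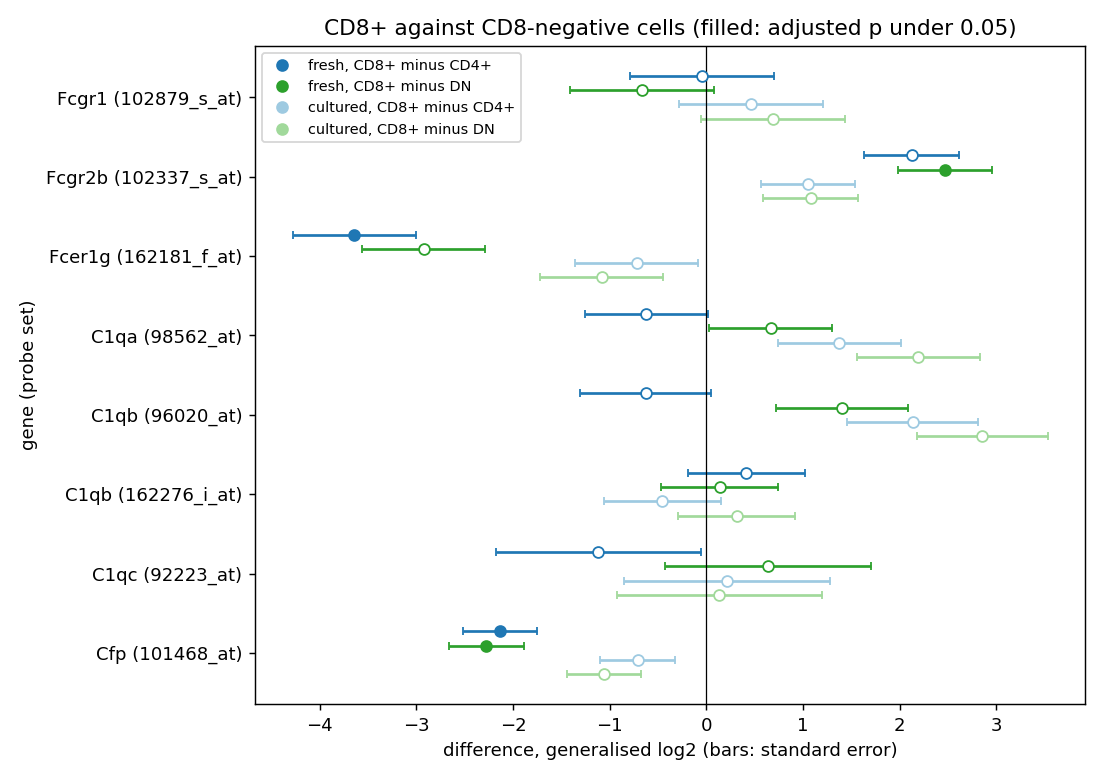
Difference between CD8+ cells and CD4+ or DN cells for the 8 tested probe sets (horizontal axis, generalised log2 scale, bars the standard error), fresh in dark and cultured in pale colours. Filled points have an adjusted p under 0.05. Fresh Cfp is filled to the left against both subsets, fresh Fcer1g against CD4+ cells, and fresh Fcgr2b to the right against DN cells.

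Cr2, the complement receptor of B cells and follicular dendritic cells, ranged from -3.4 to 25.8 and was at background on all 12 arrays. B cell markers are given beside it and beside Fcgr2b, which B cells express strongly. Of 11 measured B cell markers, Pou2af1 was never above background, while Ms4a1, Pax5 and Ighm were above it on all 12 arrays. Vpreb3, Cd79a, Fcer2a and Cd22 were above it on 1, 2, 3 and 4 arrays, and Cd79b, Blk and Spib on 9, 10 and 10. Cd79a was at most 79.0 in fresh cells. Their summed intensity was 4856 to 5600 in fresh CD4+, 4502 to 4862 in fresh CD8+ and 3024 to 3928 in fresh DN cells. In culture the sum was 1780 to 3816, 1847 to 4370 and 1793 to 2954 in the same order. Ighm made up most of the sum in fresh CD4+ and CD8+ cells, at 3054.5 to 3840.3 and 2741 to 3965. In fresh DN cells it was at 1264.5 to 2118.2. Single markers differed in direction among the fresh groups. Ms4a1 was at 267 to 696 in CD8+, 174 to 216 in CD4+ and 184 to 219 in DN cells, while Cd22 was at -2.8 to 14.8, 512 to 564 and 466 to 863. The part of B cells in the Fcgr2b values was not tested.

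Other genes of the same pathways were taken from 4 lists. Of 13 other Fc receptor genes, 7 had a probe set and 5 were tested. Fcgrt, which encodes the neonatal Fc receptor that recycles antibody, fell as a mean over the subsets by 0.84 ± 0.19 (limma, adjusted p = 0.00587; 527 ± 175 fresh, 286 ± 62.6 cultured, SD, n = 6), in all 22 other settings. Pigr, the transporter of polymeric antibody, rose by 1.02 ± 0.35 (adjusted p = 0.0370; 103 ± 35.9 to 225 ± 98.6), but that call held in 13 of 22 other settings and was lost when any 1 of 8 arrays was left out (adjusted p 0.0567 to 0.107). Between subsets, 0 of the 5 were called in any of the 9 comparisons.

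Of 23 other complement components, 11 had a probe set and 4 were tested, while Hc, C8g, C9, Masp1, Masp2 and Mbl1 were never above background. Cfb, the factor B of the alternative pathway, rose as a mean on culture by 1.04 ± 0.33 (limma, adjusted p = 0.0298), from 36.9 ± 14.5 when fresh. It was above background on 2 arrays, both cultured, and so was tested only through the side where it is high. That call was lost with values raised to the background limit (0.264) and when any 1 of 7 arrays was left out (0.0555 to 0.0897). No component of this list was called between subsets.

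Of 23 complement receptors and regulators, 18 had a probe set and 8 were tested. As a mean on culture 4 were called lower and 0 higher, where 22.3% and 17% of all probe sets were. C1qbp, a mitochondrial protein first found as a binder of C1q, fell by 1.11 ± 0.18 (limma, adjusted p = 0.000799), and Itgax, the CD11c chain of complement receptor 4 and the antigen of the sort, by 0.86 ± 0.23 (adjusted p = 0.0140). Both calls held in all 22 other settings. Cd81, a tetraspanin that associates with the Cr2 product in B cells, was higher in CD8+ than in CD4+ cells with both states averaged by 2.67 ± 0.28 (adjusted p = 0.000268; 2228 ± 1237 against 319 ± 135, SD, n = 4), again in all 22. It was the only member of this list called between subsets.

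Of 14 signalling partners of ITAM and ITIM receptors, 11 had a probe set and all 11 were tested. As a mean on culture 6 were called lower and 0 higher, where 22.3% and 17% of all probe sets were. The median of the 11 was -0.813, against -0.0165 over all probe sets. Ptpn6, the phosphatase SHP1, fell by 1.13 ± 0.16 (limma, adjusted p = 0.000307), Lat2, a membrane adaptor, by 0.97 ± 0.19 (adjusted p = 0.00271) and the kinase Btk by 1.19 ± 0.24 (adjusted p = 0.00310), each in all 22 other settings. With both states averaged, 4 of 11 were lower and 0 higher in CD8+ than in CD4+ cells, where 2.29% of all probe sets were called lower and 2.81% higher. Fgr, a Src family kinase of myeloid cells, was lower there by -2.19 ± 0.39 (adjusted p = 0.00868; 139 ± 90.5 against 779 ± 574, SD, n = 4), in all 22 other settings. Tyrobp, the DAP12 adaptor that also carries an ITAM, was lower by -0.77 ± 0.17 (adjusted p = 0.0244), with 13 of 22 settings keeping the call and 7 single arrays whose omission lost it (0.0505 to 0.136).

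The genes whose pattern over the 12 arrays was most like a member were found by Pearson correlation on the generalised log2 scale, for members above background on at least 6 arrays. For Cfp they were Ppdpf (0.953) and Gsn (0.951), the latter the actin-severing protein gelsolin. For Fcer1g they were Cd72 (0.922), an inhibitory receptor, and Plxnd1 (0.904), a semaphorin receptor. For C1qa they were Smagp (0.950) and Glb1 (0.938), and for the first C1qb probe set C1qa (0.937) and Echs1 (0.926). The other C1qb probe set was most like Gm7775 (0.958) and Tubb4a (0.954), and Fcgr1 most like Srsf1 (0.907) and Zkscan5 (0.896). These were chosen as the highest among all named probe sets, and several of them were dim.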

How the data were processed

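RNA of sorted splenic dendritic cells was measured on 12 arrays in 6 groups of 2. The deposited values are Average Difference intensity values to which the authors applied global scaling, per the labels. Scanner software, its version and the number of animals were not stated in the sources used here. Of 12488 probe sets, 66 controls were left out. Of the rest, the platform annotation gave 1 symbol to 10833, several to 396 and none to 1193. Looking up Entrez identifiers in RefSeq matched 10817 probe sets and altered 0 symbols.

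Intensities x were put on the scale log2((x + sqrt(x² + c²)) / 2), with c = 45.7, the median, among arrays, of each array's root mean square below 0, and a background limit of 2 times c. Limma 3.58.1 in R 4.3.3 fitted 1 mean per group over all 12 arrays (6 residual degrees of freedom), with eBayes, trend and robust estimation, and adjusted over the 6159 probe sets tested. The script was tested on simulated data. For arrays, their number, 2 per group, limits the precision. Python 3.11.15, pandas 2.3.3, numpy 2.4.6 and matplotlib 3.10.9 made tables and figures.

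The labels number the experiments 1 and 2 in every group. Deviations of same-numbered arrays correlated at 0.106 to 0.444 in the 15 pairs of groups (median 0.267), so the number was used as a block in an alternative. The others were 0.5 and 2 times the offset c, a hard floor at the background limit, every other probe set of a gene, no filter or a filter of 6 arrays, quantile normalization, fits of only the groups compared, eBayes without trend and robust estimation, and leaving out each array or the 3 of high Gapdh ratio. The members and gene lists were chosen with earlier results of these data known. All 10 members were named, and from the other lists up to 3 called genes of lowest p per list and comparison, of which the text gives some, picked after their values were seen, mostly those called in every other setting.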

Additional observations from a re-analysis of the deposited data

How the results depend on the processing

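Counts of member genes called moved by more than 1.5 times under some settings. Fits of only the groups compared called 1 between fresh CD8+ and CD4+ cells, 1 between fresh DN and CD4+ cells and 0 for culture in CD4+ cells. The other probe set of each gene gave 1 between fresh CD8+ and CD4+ cells. An offset of 0.5 times its value gave 1 between fresh CD8+ and DN cells. A filter of 6 arrays, which removes Fcgr2b and C1qc, gave 1 there, and 2 for culture in CD4+, 0 in CD8+, 1 in DN cells and 2 as a mean. A hard floor gave 1 for culture in CD8+ and 0 in DN cells. Without the 3 arrays of high Gapdh ratio 1 was called between cultured CD8+ and DN cells. The cause was not tested, apart from the filter.

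Leaving out 1 array in turn gave 0 to 3 between fresh CD8+ and CD4+ cells, 0 to 3 between fresh CD8+ and DN cells, and 0 to 0 between DN and CD4+ cells in each state and their mean. It gave 0 to 1 between cultured CD8+ and CD4+ or DN cells, 0 to 3 and 1 to 4 between CD8+ and CD4+ or DN cells averaged, 1 to 6, 1 to 2 and 0 to 3 for culture in CD4+, CD8+ and DN cells, and 4 to 4 as a mean. Differences in culture effect gave 0 to 1 for CD8+ against CD4+ and 0 to 0 for the other pairs.

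The replicate block gave 3 genes between fresh CD8+ and CD4+ cells, 3 between fresh CD8+ and DN cells and 4 for culture in DN cells, through the 3 results whose blocked p stands beside them, and changed no other member call. Over all probe sets it called 192 instead of 122 between fresh CD8+ and CD4+ cells, 128 instead of 80 between cultured CD8+ and DN cells, and 1786 instead of 1133 and 1039 instead of 610 for culture in CD4+ and DN cells. Fits of only the groups compared called 75, 15, 20 and 30 between fresh CD8+ and CD4+, fresh DN and CD4+, cultured CD8+ and CD4+, and cultured CD8+ and DN cells (122, 0, 141 and 80 as reported), 207 instead of 314 for CD8+ against CD4+ averaged, and 254 and 1178 for culture in CD4+ and DN cells. A hard floor called 206 and 134 between fresh CD8+ and CD4+ or DN cells instead of 122 and 88, the latter as 72 higher and 62 lower instead of 38 and 50. Dropping the 3 arrays whose Gapdh ratio was high gave 189 and 155 for these, and in culture 317 and 210 instead of 141 and 80, with 441 instead of 212 for CD8+ against DN averaged and 991 instead of 501 for culture in CD8+ cells. Where 0 was called, between DN and CD4+ cells and for the differences in culture effect, the other settings called at most 15, and leaving out 1 array at most 199. Of 667 combinations of a setting with 1 of 31 results for single probe sets, 527 kept direction and side of the threshold, 117 kept direction but lost the call, 23 gained it and 0 changed direction. With values raised to the background limit, both groups are equal for Fcgr2b in CD4+ and DN cells and for C1qb in DN cells, so no value is given.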
